A study of Mus musculus with 4 samples.

Results

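The 8 genes described here are *Cpa3*, *Tpsb2*, *Cma1*, *Mcpt8*, *Hdc*, *Fcer1a*, *Ms4a2* and *Mitf*, the genes by which mast cells and basophils are commonly told from other blood cells. They were chosen by name, with earlier results of these data known, and all 8 were found among the 39186 genes of the deposited table. LSK cells, the fetal liver cells that lack lineage antigens and carry Sca-1 and c-Kit, were sorted from C57BL/6 embryos, and their RNA was sequenced in 2 *Pich*-KO and 2 *Pich*-WT samples. *Pich*-KO embryos carry a small germline deletion in the second exon of the X-linked gene for PICH, a DNA translocase of mitotic DNA bridges, in every cell and not only in blood cells. The methods place fetal liver collection at mid-gestation, and neither they nor the labels say whether the samples are separate embryos, so p-values measure only the spread between these samples. The comparison asks how the transcriptome of LSK cells changes when PICH is absent.

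Mast cells are tissue cells that store histamine, heparin and proteases in granules and release them when IgE bound to the high-affinity receptor FcεRI is cross-linked. Basophils are short-lived blood granulocytes with the same receptor and a smaller set of proteases. Both arise from hematopoietic progenitors, and mast cells keep c-Kit, the receptor for stem cell factor, throughout life. Early progenitors are known to transcribe some genes of these lineages, *Cpa3* and *Hdc* among them, before any mature cell is formed. The lineage antibodies named for the sort, against CD4, CD8, Gr-1, B220 and Ter119, include none specific for mast cells, basophils or macrophages.

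The libraries held 14703215 to 20933919 reads on genes. *Kit* and *Ly6a*, the genes of the sorted antigens c-Kit and Sca-1, had 2439 to 4077 and 1061 to 3288 reads per sample. *Ly6a* was higher in *Pich*-KO, with 3288 and 2620 reads in samples 1 and 2 against 1153 and 1061 (log2 difference 1.74, adjusted p = 0.000167, limma). Of 5 lineage antigen genes, *Cd8a* and *Ly6g* had at most 4 reads in any sample. *Ptprc*, counted over all forms of CD45 and not only B220, had 3814 to 5712. *Cd4* had 54 and 14 reads in *Pich*-KO samples 1 and 2 and 182 and 226 in the other group (log2 difference -2.50, adjusted p = 0.0178, limma). By limma 2 of the 5 were lower in *Pich*-KO, beside 9.6% of all genes tested. The summed normalized count of 9 erythroid genes was 30160 to 33588 in *Pich*-KO samples and 120639 to 158864 in *Pich*-WT samples. *Pich*-WT sample 2 had 0 reads on 4 Y-linked genes, against 1607 to 2848 in the other samples. Levels below are normalized counts, that is, reads on a gene divided by the authors' size factor for the sample, and differences are given as log2FC, the log2 fold change of *Pich*-KO over *Pich*-WT on the log2(normalized count + 1) scale by limma, with its standard error (SE). In bulk samples, more cells of a type and more RNA per cell cannot be told apart.

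The sequences just upstream of the start sites are shown for *Cpa3*, *Ms4a2* and *Hdc*, because these are the 3 members whose level rose, and because GATA factors are known regulators of mast cell genes. Each is the run of 250 bases before the RefSeq start on GRCm38.p6, 5′ to 3′ on the minus strand, on which all 3 genes lie. Capitals mark the GATA words on either strand, which are GATAA and GATAG with an A or a T directly before them. The positions are chr3:20242182-20242431 for *Cpa3*, chr19:11623720-11623969 for *Ms4a2* and chr2:126618679-126618928 for *Hdc*. The first 2 windows adjoin the outer end of the deposited gene, and that of *Hdc* lies inside its span, in an intron of the longer GENCODE M21 transcript.
Cpa3: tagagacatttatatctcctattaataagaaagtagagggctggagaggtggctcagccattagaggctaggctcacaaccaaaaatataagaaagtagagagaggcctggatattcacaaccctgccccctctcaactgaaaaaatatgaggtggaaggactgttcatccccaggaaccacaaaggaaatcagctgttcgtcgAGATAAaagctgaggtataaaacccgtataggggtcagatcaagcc
Ms4a2: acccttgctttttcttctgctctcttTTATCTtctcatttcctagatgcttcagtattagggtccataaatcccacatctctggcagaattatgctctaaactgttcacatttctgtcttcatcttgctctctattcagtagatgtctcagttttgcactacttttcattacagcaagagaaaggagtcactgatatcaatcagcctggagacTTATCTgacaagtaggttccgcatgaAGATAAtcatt
Hdc: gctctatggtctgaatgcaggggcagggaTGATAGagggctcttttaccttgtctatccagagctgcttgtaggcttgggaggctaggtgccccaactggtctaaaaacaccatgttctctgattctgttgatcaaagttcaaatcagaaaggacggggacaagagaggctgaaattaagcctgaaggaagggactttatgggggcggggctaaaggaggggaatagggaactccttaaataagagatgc

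In *Cpa3* the match begins 46 bases before the start. *Ms4a2* holds 3 matches, at 224, 37 and 11 bases before it, and *Hdc* holds 1 at 221 bases. RefSeq windows were found for 7 of the 8 members, *Tpsb2* being the exception, and 6 of the 7 had a match in at least 1 window, with *Mcpt8* having none. Counted by window, 7 of the members' 9 windows hold a match, beside 26.5% of all 32851 windows of this length. The E-box words CATGTG and CACGTG, which MITF is known to bind, were found on either strand before 1 member, *Fcer1a*, and in 17.6% of all windows. The members that rose thus share GATA words with *Fcer1a*, *Cma1* and *Mitf*, which were not past the test. A match of letters shows no binding.

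Of the 8 members, 3 rose in *Pich*-KO LSK cells. *Cpa3*, *Ms4a2* and *Hdc* were 4.08, 4.52 and 2.97 times as high as in *Pich*-WT, and both *Pich*-KO samples lay above both *Pich*-WT samples for each. Of all genes tested, 28.9% were separated in this direction. *Mitf* was lower but missed the threshold. *Mcpt8* was high in 1 *Pich*-KO sample only, and *Cma1*, *Tpsb2* and *Fcer1a* were at the edge of detection in all libraries. At an adjusted p of 0.05, 3 members were higher and 0 lower by limma, with Benjamini-Hochberg adjustment over the 32428 genes tested, where 7.58% of all genes were called higher and 9.6% lower. The members' median log2 fold change was 0.97, or 0.94 with members at the floor of 3 reads set to their bound, against 0.02 over all genes. This median falls between *Mcpt8* and members with at most 5 reads, and it was 0.565 without *Pich*-KO sample 2. With another sample left out it was 1.29 to 1.91, over the 7 or 8 members that could then be tested. edgeR on the recovered reads could test 5 of the members and called 3 higher and 1 lower, against 18.6% and 20.7% of its genes. DESeq2 called 4 of 5 higher and 0 lower, against 16.7% and 20.3%. The lower member by edgeR was *Mitf*, the 1 member lower at an unadjusted p of 0.05 by limma.

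**Figure D1:**
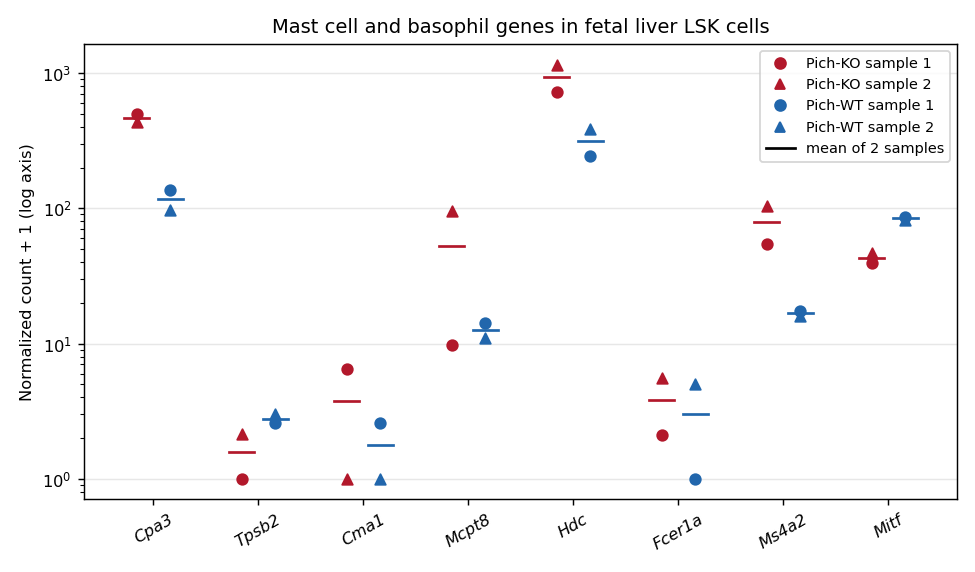
Normalized count plus 1 (log axis) of the 8 members in each sample. Red marks *Pich*-KO and blue *Pich*-WT, circles are sample 1, triangles sample 2 and bars the mean of 2 samples. *Cpa3*, *Hdc* and *Ms4a2* are separated between the groups, *Mcpt8* is high in *Pich*-KO sample 2 alone, and *Tpsb2*, *Cma1* and *Fcer1a* stay at or under 5.45.

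Among the granule proteases, carboxypeptidase A3, the product of *Cpa3* (ENSMUSG00000001865, chromosome 3, 20215620 to 20242181 on GRCm38), is the most general mark of the mast cell lineage. Samples 1 and 2 of *Pich*-KO had 498 and 437 normalized counts, and those of *Pich*-WT had 134 and 96.0. The lowest *Pich*-KO value was thus above the highest *Pich*-WT value, in groups of 467 ± 43.8 and 115 ± 27.2 (SD, n = 2). The log2FC was 2.03 (SE 0.23, adjusted p = 0.000727, limma), a 4.08-fold difference. The log2FC ran from 2.01 to 2.04 over the fits that used all 4 samples.

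The β-tryptase gene *Tpsb2* (chromosome 17, 25366550 to 25368094) and the chymase gene *Cma1* (chromosome 14, 55941451 to 55944675) encode the serine proteases that fill the granules of mature connective-tissue mast cells. For *Tpsb2*, 0 and 1 reads were counted in *Pich*-KO, against 2 and 2. For *Cma1*, the *Pich*-KO samples had 5 and 0, against 2 and 0. Neither gives a fold change that can be read at this depth, with *Tpsb2* at or under the floor of 3 reads in every library. Of the 7 further mast cell proteases examined, 6 were in the table, and *Mcpt4* was not analysed here. Together these 6 had 8 to 14 reads per *Pich*-KO sample, against 7 to 22. 5 were tested, of which 0 were past the threshold by limma, with an unadjusted p from 0.142 upwards. *Cpa3* had 457 and 384 reads in the same *Pich*-KO libraries. *Cma1* and its paralog *Mcpt9* were listed with the same reads in each of the 4 samples, and reads could be shared among the genes of the chymase locus on chromosome 14 or of the tryptase locus on chromosome 17.

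*Mcpt8* (chromosome 14, 56082166 to 56085273) encodes a protease that in mice marks basophils. The *Pich*-KO samples had 8 and 83 reads (normalized counts of 8.73 and 94.3), and the *Pich*-WT samples 17 and 10. *Pich*-KO sample 1 was below both *Pich*-WT samples and sample 2 above them, so the groups overlapped. The log2FC was 1.28 (SE 0.94, adjusted p = 0.442, limma). DESeq2 on the recovered reads gave 2.14 with an adjusted p of 0.0446, and without *Pich*-KO sample 2 the limma value was -0.37. *Prss34*, the gene of mast cell protease 11, also a basophil protease, is no member but was split in the same way, with 4 and 151 reads among *Pich*-KO samples, against 20 and 17. It is named after its values were seen.

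Within the *Pich*-KO group, sample 2 was 10.8-fold above sample 1 for *Mcpt8* (exact 95% interval of counting error 5.24 to 25.9) and 39.3-fold for *Prss34* (15.1 to 146). Of 15677 genes with at least 20 reads in these 2 samples, 0.351% differed by 5-fold or more in this direction. In the *Pich*-WT group the ratios were 0.753 and 1.09. Between the *Pich*-KO samples, sample 2 exceeded sample 1 for 6 of the 7 basophil genes that are no members, *Prss34* included. The exception was *Il13*. *Clec12a* stood at 1.15-fold, and its interval (1.05 to 1.26) lay above no difference. The intervals of *Cd200r3* and *Il4* include no difference, as do those of *Ccr3*, *Itga2* and *Il13*. *Cd200r3*, a receptor of basophils and mast cells, was 1.35-fold higher in sample 2 (0.895 to 2.05). *Il4*, the cytokine basophils are best known for, was 1.82-fold higher (0.857 to 4.07). Neutrophil granule genes were higher in *Pich*-KO sample 2 for 9 of the 9 examined, from 1.66-fold for *Mpo* to 8.02-fold for *S100a9*. Other marker lists went either way, with 7 of 9 erythroid, 4 of 6 hepatocyte, 3 of 9 megakaryocyte and 0 of 9 stem cell genes higher there. The share of all genes higher in sample 2 was not computed, so these counts have no background to be read against. Within *Pich*-KO, 3 of 12 macrophage genes were above sample 1 in sample 2, and the sum of the 12 was lower there (8483 against 9887). The 3 were *Marco* at 23.6-fold (3 and 68 reads in samples 1 and 2), *Cd5l* at 5.32-fold (19 and 97 reads) and *Timd4* at 1.74-fold. Whether the neutrophil granule signal bears on the *Mcpt8* reads was not tested.

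**Figure D2:**
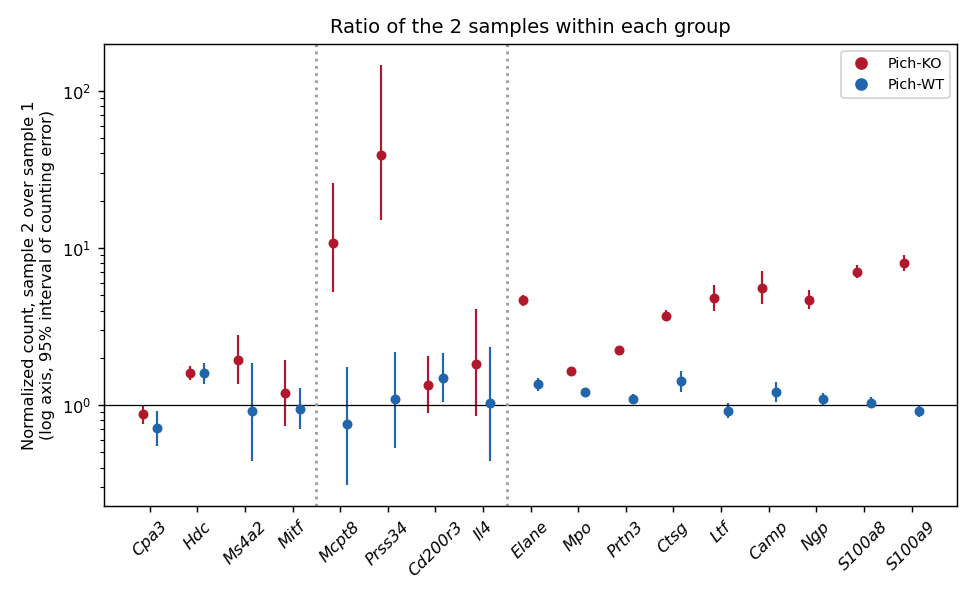
Normalized count of sample 2 over sample 1 (log axis) within *Pich*-KO (red) and within *Pich*-WT (blue), with exact 95% intervals that cover counting error only. The dotted lines part members, basophil genes and neutrophil granule genes. *Cpa3*, *Hdc*, *Ms4a2* and *Mitf* differ by less than 2-fold between the *Pich*-KO samples, whereas *Mcpt8* and *Prss34* differ by 10.8- and 39.3-fold.

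Histidine decarboxylase, the only enzyme that makes histamine, is encoded by *Hdc* (ENSMUSG00000027360, chromosome 2, 126593667 to 126619299). Samples 1 and 2 of *Pich*-KO had 719 and 1152 normalized counts, and those of *Pich*-WT 242 and 387. The groups did not overlap, although sample 2 was 1.60-fold above sample 1 within each group. The means were 935 ± 306 and 315 ± 102 (SD, n = 2), with log2FC 1.57 (SE 0.28, adjusted p = 0.00678, limma), or 2.97-fold.

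Of the genes that fill or build the granule, *Slc18a2* and *Ndst2* fell and *Srgn* was not past the test. *Slc18a2*, the vesicular transporter that loads histamine and serotonin into granules, had 236 and 164 normalized counts in *Pich*-KO against 359 and 367 in *Pich*-WT, log2FC -0.88 (adjusted p = 0.0286, limma). *Ndst2*, the sulfotransferase needed for heparin in mast cells, fell from 1259 ± 24.2 to 621 ± 25.1 (SD, n = 2), log2FC -1.02 (adjusted p = 0.00126, limma). *Srgn*, the granule proteoglycan serglycin, had 3813 and 4130 against 3813 and 3738, with log2FC 0.07 (adjusted p = 0.68, limma).

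The lipid mediator genes went both ways. *Ptgs2*, the inducible cyclooxygenase, rose from 12 and 25 reads in *Pich*-WT to 112 and 134 in *Pich*-KO (normalized counts of 122 and 152), log2FC 3.06 (SE 0.46, adjusted p = 0.00305, limma). *Ptgs1*, the constitutive cyclooxygenase, fell from 4593 and 4786 to 1790 and 1836, log2FC -1.37 (adjusted p = 9.5e-05, limma). *Hpgds*, which makes prostaglandin D2 in mast cells, fell from 853 and 833 to 181 and 92.1, log2FC -2.70 (adjusted p = 0.000667, limma). Over the granule matrix, amine and lipid mediator list of 14 genes, 1 was higher and 5 were lower by limma. Their median log2 fold change was -0.72, and 7.58% and 9.6% of all genes tested were higher and lower.

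The IgE receptor is built of an α chain that binds IgE (*Fcer1a*), a β chain that amplifies the signal (*Ms4a2*) and a pair of γ chains (*Fcer1g*). *Ms4a2* (ENSMUSG00000024680, chromosome 19, 11615523 to 11623719) had 49 and 91 reads in samples 1 and 2 of *Pich*-KO, or normalized counts of 53.4 and 103, and 21 and 15 reads in those of *Pich*-WT. The *Pich*-WT samples were close together and both lay below the *Pich*-KO samples, at 15.7 ± 0.998 against 78.4 ± 35.4 normalized counts (SD, n = 2). The log2FC was 2.18 (SE 0.42, adjusted p = 0.0094, limma), or 4.52-fold.

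*Fcer1a* (chromosome 1, 173221284 to 173227214) had 1 and 4 reads in the KO samples, against 0 and 4, too few for a fold change. *Fcer1g*, which also serves the Fc receptors of macrophages and neutrophils, fell from 4039 and 3844 normalized counts in *Pich*-WT to 1518 and 1466 in *Pich*-KO, log2FC -1.40 (SE 0.10, adjusted p = 0.000105, limma). The chains thus did not move alike. *Ms4a2* rose, *Fcer1g* fell and *Fcer1a* had at most 4 reads in any sample.

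Of 14 genes of the signalling chain behind the receptor, *Fcer1g* included, 3 were higher and 6 lower by limma. Their median log2 fold change was -0.23, and 7.58% and 9.6% of all genes tested were higher and lower. The Src-family kinase gene *Fyn* fell most, from 3826 and 2722 to 770 and 408 normalized counts (log2FC -2.52, adjusted p = 0.000774, limma). The adaptor gene *Lat* had log2FC -1.28 (adjusted p = 0.00289, limma). *Syk*, the kinase that binds the γ chain, had log2FC -0.05. The genes that rose were *Inpp5d*, *Btk* and *Vav1*, by 0.71, 0.45 and 0.32 on the log2 scale. Their adjusted p-values were 0.0043, 0.0204 and 0.0498 (limma), that of *Vav1* barely under the threshold. *Inpp5d* encodes SHIP1, a phosphatase that restrains the receptor's signal.

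MITF is the basic helix-loop-helix factor without which mast cells do not mature. *Mitf* (chromosome 6, 97807052 to 98021349) had 38.2 and 45.5 normalized counts in *Pich*-KO, against 85.2 and 81.0 in *Pich*-WT. Both *Pich*-KO samples lay below both *Pich*-WT samples, at 41.8 ± 5.16 against 83.1 ± 2.96 (SD, n = 2). The log2FC of -0.98 (SE 0.29) missed the threshold by limma (adjusted p = 0.0594). It passed with edgeR on the recovered reads (adjusted p = 0.0414), with at least 10 reads in every sample (0.0303, limma) and with the replicate block (0.0425, limma). It missed the threshold with DESeq2 (adjusted p = 0.0857), with a pseudocount of 0.1 (0.064, limma), without a filter on the mean (0.0773, limma), without the variance trend (0.145, limma) and with any 1 sample left out (0.146 to 0.307, limma). Separation of this kind is common here, since in 27.2% of all genes tested both *Pich*-KO samples lay below both *Pich*-WT samples, and in 28.9% above.

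The 3 other genes of the MiT family, whose proteins pair with MITF and steer lysosome genes, were all lower. *Tfeb* fell from 807 ± 8.32 to 446 ± 30.3 normalized counts (SD, n = 2), log2FC -0.86 (adjusted p = 0.00499, limma). *Tfe3* fell from 1303 ± 40.1 to 765 ± 9.91, log2FC -0.77 (adjusted p = 0.00397, limma). *Tfec*, which is best known from macrophages, had 154 and 306 against 463 and 503, log2FC -1.15 (adjusted p = 0.0348, limma). The call on *Tfec* was lost with a pseudocount of 0.1 (adjusted p = 0.0768, limma) and without a filter on the mean (0.105, limma).

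Of 12 further transcription factor genes of the 2 lineages, 1 was higher and 5 lower by limma, beside 7.58% and 9.6% of all genes. *Gata2*, which drives the commitment of both, had 1287 and 1030 normalized counts in *Pich*-KO against 1597 and 1852 in *Pich*-WT, log2FC -0.58 (adjusted p = 0.0317, limma). This call was lost with a pseudocount of 0.1 (adjusted p = 0.0588, limma) and without a filter on the mean (0.079, limma). *Cebpa*, whose level steers progenitors towards basophils and away from mast cells, fell from 1138 and 1122 to 462 and 438, log2FC -1.33 (adjusted p = 0.000474, limma). For *Gata1* the log2FC was -0.36 (adjusted p = 0.132, limma), and for *Spi1* it was 0.13 (0.352). *Runx1* was the one that rose, from 954 ± 141 to 2618 ± 405 (SD, n = 2), log2FC 1.46 (adjusted p = 0.000589, limma). *Hes1* and *Bhlhe40* fell by 2.74 and 1.78 on the log2 scale. *Gata2*, *Gata1* and *Mitf* thus had negative values, only that of *Gata2* past the threshold by limma. *Runx1* rose, as *Cpa3*, *Hdc* and *Ms4a2* did. The part of these factors in the members' levels was not tested.

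Among 13 receptor genes of mast cells and basophils, 0 were higher and 3 lower by limma, beside 7.58% and 9.6% of all genes. *Kit* and the IL-33 receptor gene *Il1rl1* were higher at an unadjusted p of 0.05 only. *Kit* had normalized counts of 4447 and 2772 in the KO samples, against 2328 and 2513, log2FC 0.54 (adjusted p = 0.114, limma, and 0.0178 with DESeq2). *Csf2rb2*, a β chain of the mouse IL-3 receptor, fell from 1081 and 903 to 346 and 300, log2FC -1.61 (adjusted p = 0.000485, limma). The other β chain gene, *Csf2rb*, had log2FC -0.03 (adjusted p = 0.869, limma), and the α chain gene *Il3ra* had -0.35 (0.303, limma). *Adora3*, an adenosine receptor of mast cells, and *Crlf2*, the TSLP receptor, had log2FC values of -1.62 and -0.87 (adjusted p = 0.00779 and 0.00499, limma). Of 7 other basophil genes, *Ccr3*, the eotaxin receptor, fell from 29.7 and 48.0 to 3.27 and 7.96 (log2FC -2.65, adjusted p = 0.0142, limma) and the others were not past the threshold.

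Over the 7 further lists, 5 of 68 tested genes were higher and 23 lower by limma, with a median log2 fold change of -0.24. These are 7.35% and 33.8% of the lists' genes, beside 7.58% and 9.6% of all genes tested, so the share higher was no more than over all genes. edgeR, which leaves out low genes, called 6 of 58 higher and 24 lower, or 10.3% and 41.4%, beside 18.6% and 20.7%. The lists include genes that other blood cells use, and they were chosen with earlier results of these data known.

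**Figure D3:**
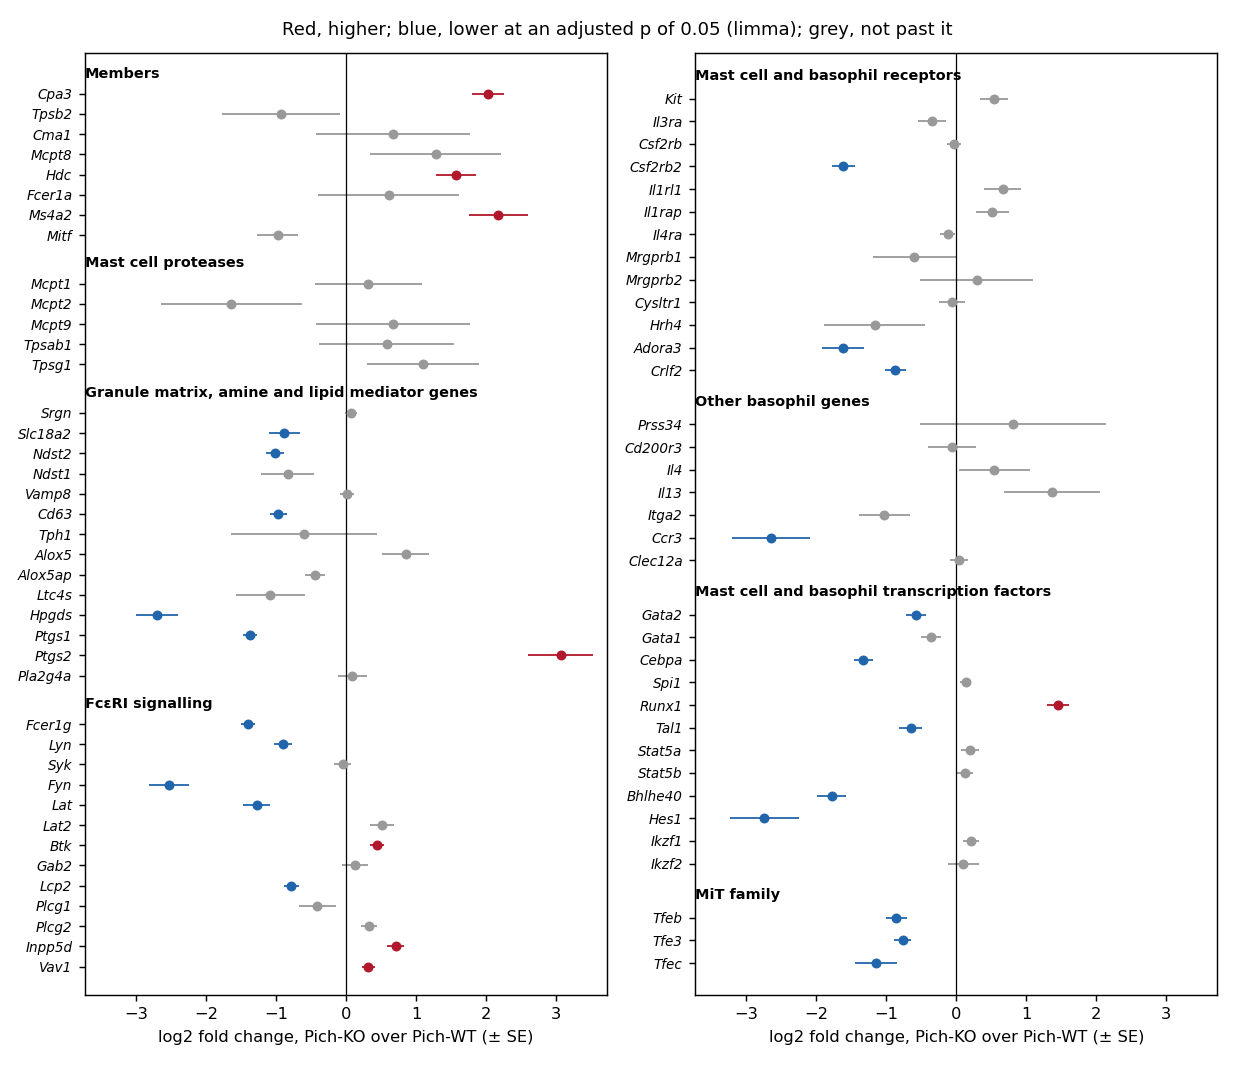
Log2 fold change of *Pich*-KO over *Pich*-WT with its standard error for the 8 members and 67 of the 68 genes tested in 7 further lists. Red genes were higher and blue genes lower at an adjusted p of 0.05 (limma), and grey genes were not past it. Red marks stand on *Cpa3*, *Hdc* and *Ms4a2* among the members and on 5 further genes, against 22 blue ones.

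Levels can be compared between genes only per length, as normalized count per kilobase of the gene length in the deposited table. In *Pich*-KO the order was *Cpa3* (288 to 329), *Hdc* (113 to 180), *Mcpt8* (8.74 to 94.5), *Ms4a2* (19.0 to 36.8) and *Mitf* (6.16 to 7.34). *Mcpt8* and *Ms4a2* overlapped, and the other neighbours in this order did not. In *Pich*-WT the order was *Cpa3* (63.3 to 88.6), *Hdc* (37.9 to 60.6), *Mitf* (13.1 to 13.7), *Mcpt8* (10.02 to 13.3) and *Ms4a2* (5.33 to 5.83), with *Mitf* and *Mcpt8* overlapping. *Cpa3* and *Hdc* led in both groups, and *Ms4a2* stood above *Mitf* in *Pich*-KO and below it in *Pich*-WT. *Fcer1a*, *Cma1* and *Tpsb2* had the lowest levels in both groups.

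Marker genes of other cell types differed between the groups. For the counts below, limma called 7.58% of all genes tested higher and 9.6% lower. With edgeR, which leaves out low genes, the shares were 18.6% and 20.7%. Of 12 macrophage genes, 11 fell and 0 rose by limma, and their summed normalized count was 8483 to 9887 in *Pich*-KO and 60492 to 62746 in *Pich*-WT. Macrophages are known to express *Fcer1g*, *Hpgds*, *Ptgs1*, *Tfec* and *Mitf*, and the part of these cells in the lower values of those genes was not tested. Of 9 neutrophil granule genes, 3 rose and 0 fell, at sums of 64513 to 121501 against 16683 to 19389. The 3 were *Mpo*, *Prtn3* and *Ctsg*, granule genes of early myeloid cells, with log2FC values of 2.63, 2.73 and 2.65 (adjusted p = 0.000151, 0.000756 and 0.00933, limma). *Elane*, on the same list, was not past the threshold (log2FC 0.90, adjusted p = 0.374, limma). Nor was *S100a8* (0.31), nor were *S100a9*, *Ngp*, *Camp* and *Ltf*, with negative values of -0.16, -0.49, -0.52 and -0.86. *Mpo* held 50103 of the list's 59148 reads in *Pich*-KO sample 1 and 79607 of 106886 in sample 2. The call on *Ctsg* was lost without a filter on the mean (adjusted p = 0.0554, limma). *Mpo*, *Prtn3* and *Ctsg* rose with *Cpa3*, *Hdc* and *Ms4a2*, whose transcripts early myeloid progenitors can also hold. The part of such progenitors in that rise was not tested. Erythroid, megakaryocyte, hepatocyte and stem cell lists had 7 of 9, 3 of 9, 4 of 6 and 5 of 9 genes lower and 0 higher. No gene of these lists was at 0 in all samples.

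**Figure D4:**
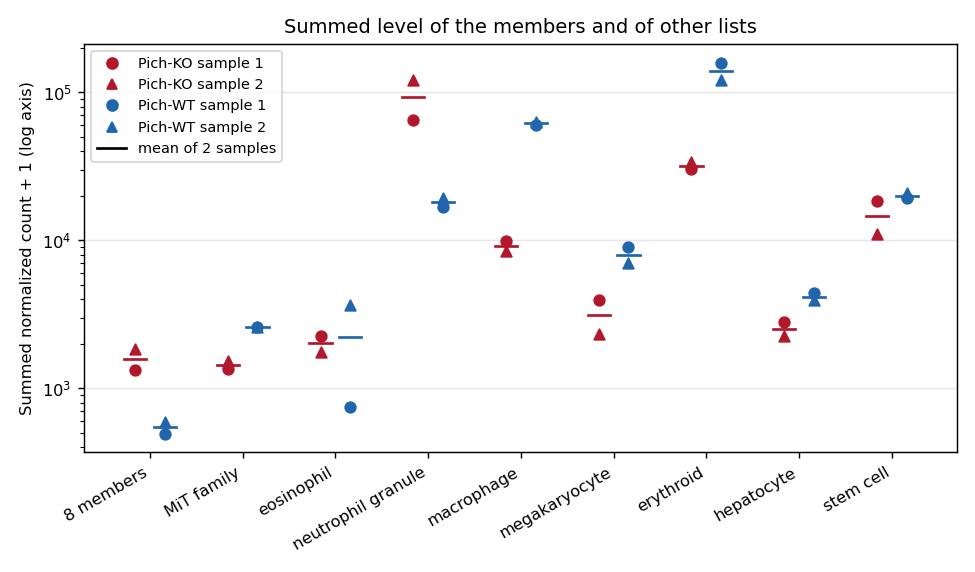
Summed normalized count plus 1 (log axis) of the 8 members, of the other MiT family genes and of marker lists of other cell types. Red marks *Pich*-KO, blue *Pich*-WT, circles sample 1, triangles sample 2 and bars the mean. The members' sum lies at 1324 and 1837 in *Pich*-KO against 495 and 595 in *Pich*-WT. Beside it stand a higher neutrophil granule sum, most of it *Mpo*, and a lower macrophage sum.

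With 2 samples in a group, the calls lean on variance information borrowed from other genes. Without the trend of that variance with the mean, 0 members passed by limma, although 3 higher ones had an unadjusted p under 0.05. With 1 sample left out, the log2FC values were 1.79 to 2.27 for *Cpa3*, 1.23 to 1.91 for *Hdc* and 1.71 to 2.65 for *Ms4a2*, and 0 members passed (adjusted p 0.0603 to 0.315 for these 3, limma). Without *Pich*-WT sample 2, the library with no Y-linked reads, the values were 1.79, 1.90 and 2.11 for *Cpa3*, *Hdc* and *Ms4a2*.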

How the data were processed

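RNA of sorted fetal liver LSK cells was measured in 2 *Pich*-KO and 2 *Pich*-WT samples, grouped by their titles. The values deposited by the authors are a signal per gene, reads counted on the gene and divided by one size factor per sample, and for *Pich*-WT sample 2, whose factor is 1, the deposited values are the counts themselves. Reads were recovered by dividing by the value of 1 read, and 100% of values came out whole within 0.01. The submitters' processing notes name Bowtie 0.12.2 and the builds mm8 and mm9, but 97.8% of 39163 genes have the start and end of GENCODE M21, so coordinates are on GRCm38. The counter is not given in the sources used here. The authors' fold changes and p-values, also in the table, were not used.

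limma 3.58.1 (R 4.3.3) was run on log2(value + 1) for the 32428 genes whose mean reached 1, two-sided, with the trend option for the variance and Benjamini-Hochberg adjustment over all of them. Fold changes on this scale understate the change of low genes. edgeR 4.0.16 and DESeq2 1.42.0 on recovered reads, another pseudocount and other filters, a replicate block and leaving out each sample were alternatives. The procedure was tested on simulated data. The members and lists were chosen with earlier results of these data known. Named genes are the members, up to 4 genes past the threshold in each further list with the largest change, and *Kit*, *Ly6a*, *Fcer1g*, *Gata2*, *Gata1*, *Cebpa* and *Spi1*; further genes were named after their values were seen. A few listed genes, counted in their lists, are not reported here by name. Replicates differed beyond counting error (chi-square per degree of freedom 17.7 and 9.54) and each was 1 replicate. Intervals and the floor of 3 reads cover counting error only.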

Additional observations from a re-analysis of the deposited data

How the results depend on the processing

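The counts of higher and lower genes over all genes were 2459 and 3113, and those over the 7 further lists were 5 and 23. Without a variance trend these were 0, 0, 0 and 0, and 0 members were higher, with all else kept as it was and 3343 higher and 4034 lower genes at an unadjusted p of 0.05. With 1 sample left out, which leaves a lone sample assumed to vary like the other group, the counts ran from 0 to 548 higher and 0 to 1193 lower genes, from 0 to 0 higher and 0 to 0 lower members and from 0 to 1 higher and 0 to 12 lower genes of the further lists. Only without *Pich*-KO sample 1 were there any calls. The members called lower numbered 1, *Mitf*, with at least 10 reads in every sample, with edgeR and with the replicate block. Replicate numbers pair nothing that the labels name, and the deviations of same-numbered samples had a correlation of 0.018 over 10612 genes. With the replicate block 9 genes of the further lists were higher, *Kit* among them, 3 members were higher, and 3122 and 3874 genes were higher and lower. Values that reversed, none of them past the threshold in the reported fit, were -0.37 for *Mcpt8* and -1.69 for *Prss34* without *Pich*-KO sample 2, -0.10 and -0.55 for *Fcer1a* without *Pich*-KO sample 2 and without *Pich*-WT sample 1, and -0.01 for *Cma1* without *Pich*-WT sample 2. Their highest values with 1 sample left out were 2.93, 3.32, 1.77 and 2.01 for *Mcpt8*, *Prss34*, *Fcer1a* and *Cma1*. *Cpa3*, *Hdc* and *Ms4a2* kept their direction in every fit and their side of the threshold in 6 of the 7 other fits with all samples. An exact two-sided permutation test of 2 samples against 2 cannot go below p = 0.333. Depth limits *Fcer1a*, *Cma1* and *Tpsb2*, with 3 reads or fewer on average.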

Other observations

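Eosinophils share progenitors with basophils, and their granule genes *Prg2* and *Epx* were spread widely within the *Pich*-WT group. *Prg2*, the gene of major basic protein, had normalized counts of 277 and 2173 in the *Pich*-WT samples and of 1315 and 933 in the *Pich*-KO samples. *Epx*, the eosinophil peroxidase gene, had 37.5 and 457 there against 288 and 210. Of the 9 eosinophil genes examined, 2 were lower by limma, *Ccr3* and *Ear2*, and 0 were higher, beside 9.6% and 7.58% of all genes. The summed level of the list was 751 and 3668 in *Pich*-WT samples 1 and 2 and 2272 and 1756 in *Pich*-KO samples 1 and 2. *Pich*-WT sample 2, the highest of the 4 in eosinophil genes, was the lower of its group for *Mcpt8* and *Cpa3* and the higher for *Hdc*.

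The interleukin gene *Il13* had 9 and 6 reads among *Pich*-KO samples, against 2 and 4, and *Il4* had 12 and 21 against 15 and 12. Neither was past the threshold (adjusted p = 0.242 and 0.551, limma).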
